A study of Homo sapiens with 8 samples.

Results

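The genes described here encode the ERBB receptors and the growth factors that bind them. The list holds 4 receptor genes (EGFR, ERBB2, ERBB3 and ERBB4) and 6 ligand genes (AREG, EREG, TGFA, BTC, NRG1 and HBEGF). A gene was taken through probe sets (groups of short probes that read 1 transcript) named for it alone, and where a gene had several, the one with the highest mean over all arrays was used. All 4 receptors and 5 of the 6 ligands had such a probe set, 9 genes of the 18417 that could be named. AREG, which encodes amphiregulin, was not analysed here.

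The signals come from T47D, an established breast cancer cell line of luminal type that carries the estrogen receptor, on 8 Affymetrix Human Gene 1.0 ST arrays. Cells were kept in steroid-deprived medium and transfected with 200 nM siRNA. This was a scrambled control or a mix targeting HSD17B1, whose product 17β-HSD1 makes estradiol from estrone. After 48 hours they were given medium with 1 nM estradiol (E2) or with ethanol vehicle. The 4 groups had 17β-HSD1 siRNA and E2, 17β-HSD1 siRNA and vehicle, control siRNA and E2, or control siRNA and vehicle, each with 2 arrays from separate culture experiments. All 4 groups were transfected, and all were grown in charcoal-treated serum.

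ERBB receptors are tyrosine kinases of the cell surface that work in pairs. Ligand binding to EGFR, ERBB3 or ERBB4 opens the receptor for pairing, while ERBB2 has no known ligand of its own and serves as the favoured partner of the others. ERBB3 has a weak kinase and carries many docking sites for phosphatidylinositol 3-kinase, so the ERBB2 and ERBB3 pair feeds strongly into AKT signalling. TGFA and AREG bind EGFR, EREG, BTC and HBEGF bind EGFR and ERBB4, and NRG1 (neuregulin 1) binds ERBB3 and ERBB4. In estrogen receptor-positive breast cancer cells, ERBB2 is known as a gene that estradiol represses.

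ERBB2 was the one member whose change with E2 passed the test, so the sequence at its annotated gene start is shown. Whether the ERBB2 transcripts in these cells begin at this start or at another was not tested. It is the RefSeq window of the plus strand of GRCh38.p14, chr17:39687844-39688143, which runs from 250 bases before the annotated gene start to 50 bases after it. Capitals mark the 36 bases between this start of ERBB2 and the start of PGAP3, the neighbour read from the minus strand.

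ERBB2 promoter: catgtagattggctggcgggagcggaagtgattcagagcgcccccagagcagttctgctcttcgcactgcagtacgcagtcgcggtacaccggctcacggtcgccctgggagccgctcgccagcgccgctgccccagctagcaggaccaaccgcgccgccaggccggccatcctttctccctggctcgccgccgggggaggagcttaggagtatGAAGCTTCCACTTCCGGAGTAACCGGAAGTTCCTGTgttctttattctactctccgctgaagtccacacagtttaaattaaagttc

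The first 214 bases of the window therefore lie on the PGAP3 side, and G and C made up 60.7% of the window. A full estrogen response element (GGTCA and TGACC with any 3 bases between them), its single arm GGTCA, GCCNNNGGC (AP-2) and GGGCGG (a GC box) were searched on both strands. The single arm also lies within the full element. None of these motifs was found in the ERBB2 window. No other ERBB2 start and no sequence outside this window was searched, so their absence from the gene's control regions is not shown. Of the 35116 promoter windows in the table, 0.057% held the full element, 37.4% the single arm, 23.2% the AP-2 letters and 45% the GC box. Windows were given for 7 of the 9 measured members, and the full element was in none of them.

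The arrays carried the markers of a luminal line. Of 12 luminal epithelial markers, 11 had a mean signal above the 75th percentile of all probe sets. The same held for 0 of 5 basal and myoepithelial, 1 of 7 fibroblast, 0 of 5 immune and 0 of 4 endothelial markers. The estradiol targets GREB1 and PGR rose with E2, by log2 changes of 1.71 ± 0.12 and 1.04 ± 0.13 (SE; limma adjusted p = 0.000249 and 0.00324). HSD17B1 was lower in the knockdown arrays than in the control arrays, with an averaged log2 change of -0.56 ± 0.16 (SE) that did not pass (limma adjusted p = 0.221). One array stood apart: replicate 1 of 17β-HSD1 siRNA with vehicle had a mean correlation of 0.976 with the others, against 0.984 to 0.988. It held the highest signal of 37.7% of all genes, 54.3% of those dimmer than the median and 21.1% of the brighter ones. Among the 9 members it held the highest signal of 5 (EGFR, EREG, BTC, NRG1 and HBEGF).

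**Figure D1:**
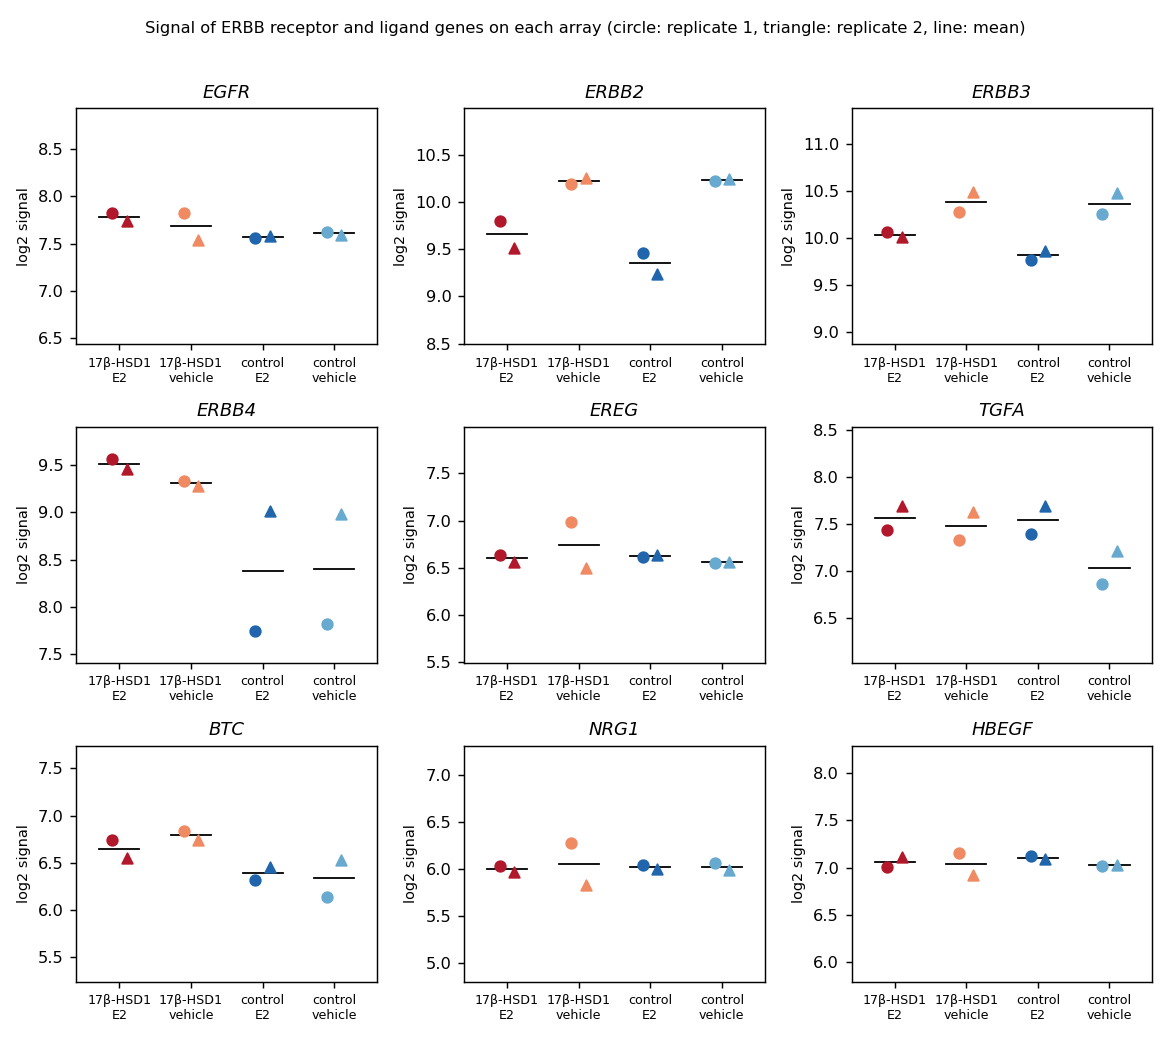
Log2 signal (vertical axis, the same height in each panel) of the 9 measured genes on each of the 8 arrays, by siRNA and medium; circles are replicate 1, triangles replicate 2 and lines the mean of both. ERBB2 and ERBB3 were lower in every E2 array than in every vehicle array, and ERBB4 was higher in every 17β-HSD1 siRNA array than in every control siRNA array.

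The first comparison asked what E2 did to the receptors and their ligands. ERBB2 fell to 0.605-fold when averaged over both siRNAs, and ERBB3 stood at 0.733-fold without passing the threshold. EGFR and ERBB4 stood near no change, and among the ligands TGFA had the largest difference, 1.23-fold, which did not pass. By limma, over all 21214 named probe sets, 1 of the 9 members was called at an adjusted p below 0.05, where 1.55% of all probe sets were called and 0.226% were called lower. An unadjusted p below 0.05 was found for 3 members, ERBB2, ERBB3 and TGFA, and for 8.89% of all probe sets.

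ERBB2 encodes the receptor also known as HER2. With 17β-HSD1 siRNA its log2 signal was 9.80 and 9.52 in E2, against 10.20 and 10.25 in vehicle. With control siRNA it was 9.46 and 9.24 in E2, against 10.23 and 10.25 in vehicle. The 4 vehicle arrays lay close together and the 4 E2 arrays were all below them. The averaged change was -0.72 ± 0.11 (SE, 4 arrays against 4; limma adjusted p = 0.00783), with a 95% interval of -0.97 to -0.48. The call was lost without replicate 2 of 17β-HSD1 siRNA with E2, where the change was -0.65 (adjusted p = 0.0615). As the arrays read bulk RNA, fewer cells with the transcript and less of it per cell cannot be told apart.

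ERBB3, which encodes the partner with the weak kinase, moved in the same sense on every array. Its signal with 17β-HSD1 siRNA was 10.06 and 10.01 in E2, against 10.28 and 10.49 in vehicle. The control siRNA arrays gave 9.77 and 9.87 in E2, against 10.26 and 10.48 in vehicle. No E2 array reached the level of a vehicle array. The averaged change was -0.45 ± 0.11, with a 95% interval of -0.68 to -0.21, and missed the threshold (limma adjusted p = 0.0744). With the replicate number as a block the adjusted p was 0.0439, and it was 0.0473 both after a further quantile normalization and in an additive model of siRNA and medium. A block with replicates 1 and 2 exchanged in the control siRNA, vehicle group did not call ERBB3. ERBB2 and ERBB3 were the 2 members of 9 whose E2 and vehicle arrays did not overlap, both lower, where 1.99% of all named probe sets were lower without overlap.

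Taken by replicate number, the E2 change of ERBB2 was -0.58 among the replicate 1 arrays and -0.87 among the replicate 2 arrays. For ERBB3 it was -0.36 and -0.54. Both genes thus had the larger drop in replicate 2, and neither changed direction. No test of that difference was made.

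EGFR, the founding receptor of the family, showed little difference with E2. Its signal was 7.82 and 7.74 with 17β-HSD1 siRNA in E2, against 7.83 and 7.54 in vehicle, and 7.56 and 7.58 with control siRNA in E2, against 7.63 and 7.59 in vehicle. The averaged change was 0.03 ± 0.11, with a 95% interval of -0.20 to 0.26. For ERBB4 the E2 change was 0.09 ± 0.28, with an interval of -0.52 to 0.70 that is wider than for any other member. That width goes with the spread between its control siRNA arrays, described further on.

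TGFA encodes transforming growth factor alpha, an EGFR ligand made as a membrane-bound precursor. With 17β-HSD1 siRNA its signal was 7.43 and 7.69 in E2, against 7.33 and 7.62 in vehicle. With control siRNA it was 7.40 and 7.70 in E2, against 6.86 and 7.21 in vehicle. The E2 and vehicle arrays overlapped with 17β-HSD1 siRNA, while with control siRNA both E2 arrays lay above both vehicle arrays, as for 16.6% of probe sets. The averaged change was 0.30 ± 0.13 (limma adjusted p = 0.542), and it was 0.08 ± 0.19 with 17β-HSD1 siRNA and 0.51 ± 0.19 with control siRNA. In all 4 groups replicate 2 had the higher TGFA signal, by 0.26 to 0.35.

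The other ligand genes had small averaged E2 changes. EREG (epiregulin) changed by -0.04 ± 0.12, BTC (betacellulin) by -0.05 ± 0.12, NRG1 by -0.03 ± 0.12 and HBEGF (heparin-binding EGF-like growth factor) by 0.05 ± 0.10, with adjusted p of 0.988 or above in limma. Over the 8 arrays signals ran from 6.50 to 6.98 for EREG and from 6.14 to 6.84 for BTC. They ran from 5.83 to 6.28 for NRG1 and from 6.92 to 7.15 for HBEGF. For each of these genes the E2 and vehicle arrays overlapped. Within control siRNA, EREG and HBEGF had both E2 arrays above both vehicle arrays, as TGFA did and as 16.6% of probe sets did. BTC and NRG1 overlapped there, and EREG and HBEGF overlapped with 17β-HSD1 siRNA. The second NRG1 probe set stood at -0.21 ± 0.12 (adjusted p = 0.78). All 4 genes had a mean signal below the median probe set, between the 27.0th percentile for NRG1 and the 45.2nd for HBEGF, while ERBB2 and ERBB3 stood at the 90.9th and 92.7th. The table gives no detection call, so whether the dim probe sets read a transcript was not tested, and percentiles also depend on the probes.

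Receptors and ligands differed in their averaged E2 changes as a description only. The median was -0.21 for the 4 receptors and -0.03 for the 5 ligands, beside -0.02 for all 18417 genes. The receptor median sits between ERBB2 and ERBB3 on one side and EGFR and ERBB4 on the other, and so describes no single gene. Without the array that stood apart, the ligand median was 0.085. The receptor median was -0.35 without control siRNA, vehicle replicate 1 and also without control siRNA, E2 replicate 2, and lay between -0.23 and -0.19 without any other single array.

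**Figure D2:**
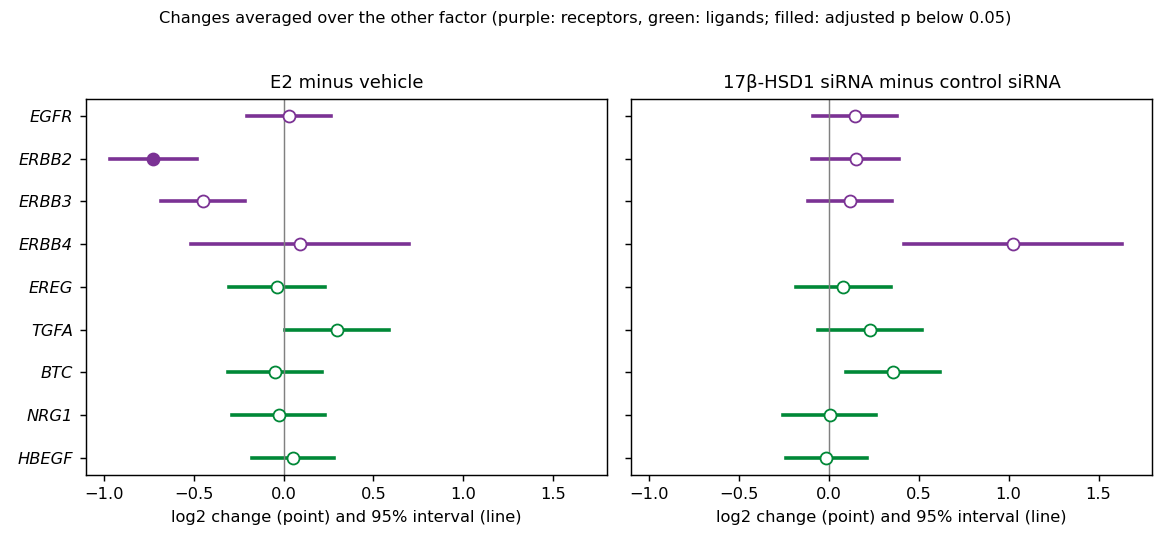
Log2 change of each measured gene (horizontal axis) with its 95% interval, for E2 minus vehicle on the left and 17β-HSD1 siRNA minus control siRNA on the right, each averaged over the other factor; purple marks receptors, green ligands, and a filled point an adjusted p below 0.05. Only ERBB2 under E2 is filled, at -0.72, and ERBB4 has the widest interval in both panels.

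Split by siRNA, the E2 change of ERBB2 was -0.56 ± 0.16 with 17β-HSD1 siRNA (adjusted p = 0.352) and -0.88 ± 0.16 with control siRNA (adjusted p = 0.0641). With the replicate block the adjusted p for control siRNA was 0.0285. The change of ERBB3 was -0.35 ± 0.15 with 17β-HSD1 siRNA and -0.55 ± 0.15 with control siRNA. No member was called with either siRNA, by limma, where 0.269% of probe sets were called with 17β-HSD1 siRNA and 0.0848% with control siRNA. An unadjusted p below 0.05 was found for 2 members with 17β-HSD1 siRNA (ERBB2 and ERBB3) and for 3 with control siRNA (the same pair and TGFA). It was found for 4.52% of all probe sets with 17β-HSD1 siRNA and for 5.94% with control siRNA.

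Whether the E2 change itself differed between the siRNAs was tested by the interaction. For ERBB2 the difference was 0.32 ± 0.22, with a 95% interval of -0.17 to 0.80. It was 0.20 ± 0.21 for ERBB3, with an interval of -0.27 to 0.67, and -0.42 ± 0.26 for TGFA, with an interval that ends at 0.15. Among the 9 members 0 were called and 0 had an unadjusted p below 0.05, where 0% of all probe sets were called and 0.66% had such a p. The intervals allow differences about as large as the changes, so like responses are not shown.

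The second comparison asked what 17β-HSD1 siRNA did to the same genes. ERBB4 stood 2.03-fold higher and BTC 1.28-fold higher on average, and neither passed. All 4 receptors had positive averaged changes, as did 4 of the 5 ligands and 9999 of all 18417 genes. By limma 0 of 9 members were called, where 0.457% of probe sets were called, and 2 had an unadjusted p below 0.05, ERBB4 and BTC, as did 9.44% of all probe sets. These 2 were also the members whose arrays did not overlap, both higher, where 2.24% of probe sets were higher without overlap.

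ERBB4 encodes a receptor of the neuregulins with an active kinase. Its signal with 17β-HSD1 siRNA was 9.57 and 9.46 in E2 and 9.34 and 9.28 in vehicle. With control siRNA it was 7.74 and 9.01 in E2 and 7.82 and 8.98 in vehicle. The 4 knockdown arrays lay close together, while both replicate 1 control arrays were more than 1 log2 unit below both replicate 2 control arrays. The averaged change was 1.02 ± 0.28 (SE, 4 arrays against 4; limma adjusted p = 0.171), with a 95% interval of 0.42 to 1.63.

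The size of that ERBB4 difference hung on the control arrays. Among replicate 1 arrays it was 1.67, and among replicate 2 arrays 0.37. With the replicate block the adjusted p was 0.0489. It was 0.0331 without control siRNA, vehicle replicate 2 and 0.00997 without control siRNA, E2 replicate 2. Without the replicate 1 control arrays the change was 0.73 (vehicle) and 0.71 (E2), with adjusted p of 0.5 and 0.358.

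HSD17B1 itself had the mirror arrangement on the same arrays. It stood at 8.32 and 8.37 with 17β-HSD1 siRNA in E2 and at 8.41 and 8.36 in vehicle. With control siRNA it was 9.12 and 8.56 in E2 and 9.35 and 8.66 in vehicle. The replicate 1 control arrays thus had the lowest ERBB4 and the highest HSD17B1 signals, and the replicate 2 control arrays lay between them and the knockdown arrays for both genes. What part the difference between the control arrays has in the ERBB4 result was not tested.

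**Figure D3:**
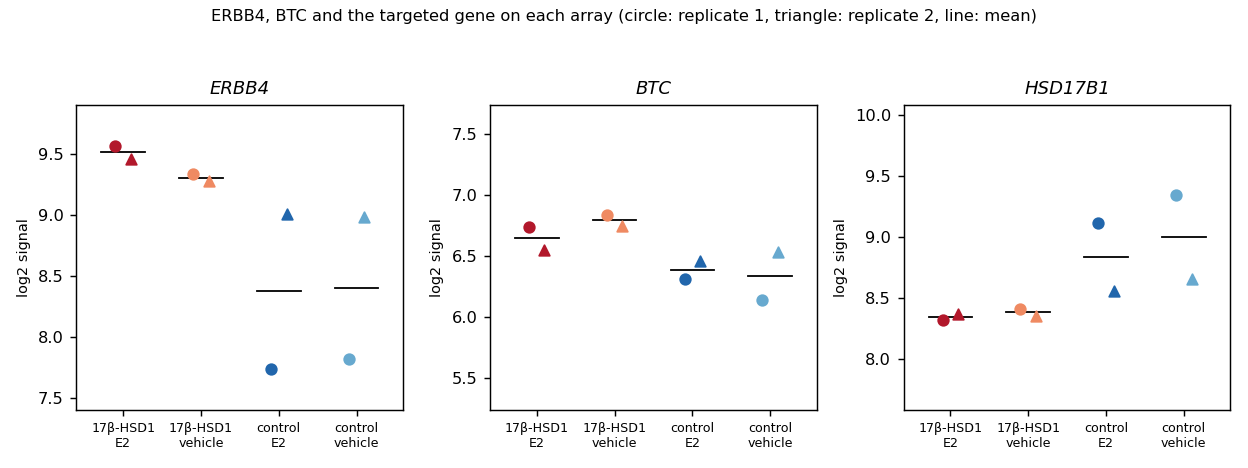
Log2 signal (vertical axis, the same height in each panel) of ERBB4, BTC and the targeted gene HSD17B1 on each array, by siRNA and medium; circles are replicate 1, triangles replicate 2 and lines the mean of both. The control circles lie lowest for ERBB4, at 7.74 and 7.82, and highest for HSD17B1, at 9.12 and 9.35, with the control triangles nearer to the knockdown arrays.

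BTC, a ligand of EGFR and ERBB4, was arranged like ERBB4 at a lower signal. It stood at 6.74 and 6.55 with 17β-HSD1 siRNA in E2 and at 6.84 and 6.75 in vehicle. With control siRNA it was 6.31 and 6.46 in E2 and 6.14 and 6.53 in vehicle. The gap between the closest arrays of the 2 siRNAs was small, 6.55 against 6.53. The averaged change was 0.36 ± 0.12 (limma adjusted p = 0.306), and it was 0.56 among replicate 1 and 0.15 among replicate 2 arrays.

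The averaged siRNA change was 0.14 ± 0.11 for EGFR, 0.15 ± 0.11 for ERBB2 and 0.12 ± 0.11 for ERBB3, with 95% intervals that reach from below 0 to between 0.35 and 0.39. TGFA stood at 0.23 ± 0.13, EREG at 0.08 ± 0.12, NRG1 at 0.01 ± 0.12 and HBEGF at -0.01 ± 0.10. Limma adjusted p values lay between 0.69 and 0.998. Medians were 0.15 for the receptors and 0.08 for the ligands, beside 0.01 for all genes, and the ligand median was -0.039 without the array that stood apart.

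Within a medium the knockdown differences were less certain still, with 0 of 9 members called in either and 0% of all probe sets called. An unadjusted p below 0.05 was found for ERBB4 in E2, and for ERBB4, TGFA and BTC in vehicle, beside 4.61% of all probe sets in E2 and 5.45% in vehicle. In E2 all 4 receptors had both 17β-HSD1 siRNA arrays above both control siRNA arrays, as did BTC. Of all probe sets 18.1% were arranged that way. In vehicle ERBB4, TGFA and BTC were so arranged, beside 11.4% of probe sets. The differences in E2 were 1.14 ± 0.39 for ERBB4, 0.31 ± 0.16 for ERBB2, 0.22 ± 0.15 for ERBB3, 0.21 ± 0.15 for EGFR, 0.26 ± 0.17 for BTC and 0.02 ± 0.19 for TGFA. In vehicle they were 0.91 ± 0.39 for ERBB4, -0.01 ± 0.16 for ERBB2, 0.02 ± 0.15 for ERBB3, 0.08 ± 0.15 for EGFR, 0.46 ± 0.17 for BTC and 0.44 ± 0.19 for TGFA.

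The group means put the medium first for ERBB2 and ERBB3 and the siRNA first for ERBB4. The mean ± SD of 2 arrays was 9.66 ± 0.20 for ERBB2 with 17β-HSD1 siRNA and E2, 10.22 ± 0.04 with 17β-HSD1 siRNA and vehicle, 9.35 ± 0.15 with control siRNA and E2 and 10.24 ± 0.01 with control siRNA and vehicle. For ERBB3 the means were 10.04 ± 0.03, 10.38 ± 0.15, 9.82 ± 0.07 and 10.37 ± 0.15 in the same groups. The 2 vehicle groups lay within their spread of each other for both genes, and the control siRNA, E2 group was lowest. ERBB4 ran differently, with means of 9.52 ± 0.08, 9.31 ± 0.04, 8.38 ± 0.90 and 8.40 ± 0.82, where the 2 control groups did not differ beyond their spread.

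The genes whose arrays ran most like those of 3 members were looked up among the 18416 other genes by Pearson's r over the 8 arrays. For ERBB2 these were DUSP10, a phosphatase gene of stress kinases (r = 0.988), PHEX, AGPAT4, HILPDA and ACBD4, with r of at least 0.970. Running most opposite were the potassium channel gene KCNH1 (r = -0.979), RAPGEFL1 and RERG, which had E2 changes of 1.24, 1.22 and 0.95. For ERBB3 the most alike were HEXIM1, which encodes an inhibitor of transcription elongation (r = 0.986), ADGRF1, SRGAP1, PPT1 and CALCOCO1, and the most opposite YBX1 (r = -0.983), CDV3 and SNX24. TGFA ran most like GRB10, STK24, SSU72, ANKS1B and LRRN3, with r from 0.911 to 0.924, and most unlike PTK7 (r = -0.976), CHIC1 and MIEF2. All points share the same 8 arrays, which split by medium for ERBB2 and ERBB3, so these values describe the arrangement and are no test.

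Around the receptors, 90 other genes of the pathway in 9 lists were measured. By limma 0 of the 90 were called with E2, while 17 had an unadjusted p below 0.05, which is 18.9% beside 8.90% of all genes. With the replicate block 4 were called, the PI3K regulatory subunit gene PIK3R3, the phosphatase gene INPP4B, the feedback inhibitor gene SPRY1 and the transcription factor gene ELF3. That is 4.44% of the 90, beside 2.40% of all probe sets called with the block. Their blocked changes with E2 were -0.51 ± 0.11 for PIK3R3, 0.73 ± 0.16 for INPP4B, -0.52 ± 0.10 for SPRY1 and -0.51 ± 0.11 for ELF3, with adjusted p from 0.0243 to 0.0432. For 17β-HSD1 siRNA 0 of the 90 were called with or without the block, and 10 had an unadjusted p below 0.05, which is 11.1% beside 9.17% of all genes.

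**Figure D4:**
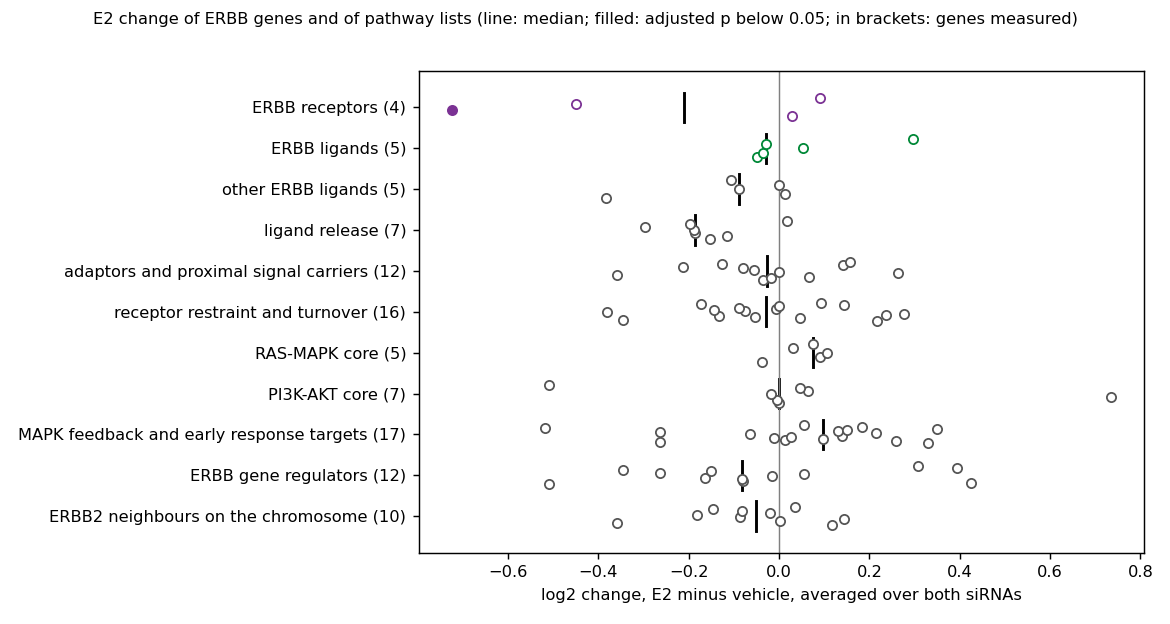
Log2 change with E2, averaged over both siRNAs (horizontal axis), of each gene of the ERBB receptors and ligands and of 9 pathway lists (1 row each, with the number measured); black lines are list medians and filled points have an adjusted p below 0.05. ERBB2, at -0.72, is the only filled point, and list medians lie between -0.21 and 0.10.

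Upstream of the receptors, 5 other ligand genes had a median E2 change of -0.09, with EGF at -0.38 ± 0.15 and NRG4 at -0.11 ± 0.14. The 7 genes that release ligands from the membrane had a median of -0.19, with 6 of 7 negative. Among them the proteases and their regulators ADAM9 and RHBDF1 stood at -0.30 ± 0.14 and -0.20 ± 0.10. None of these passed.

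Inside the cell, the 12 adaptor and proximal signalling genes had a median of -0.03. GRB7, an adaptor that binds ERBB2, stood at -0.36 ± 0.12 (adjusted p = 0.246) and PLCG1, a phospholipase gene, at 0.26 ± 0.10. The 16 genes of receptor restraint and turnover also had a median of -0.03. LRIG1, which restrains ERBB receptors at the membrane, stood at -0.38 ± 0.10 (adjusted p = 0.106) and the ubiquitin ligase gene CBLB at -0.35 ± 0.10. LRIG1 had 9.61 and 9.67 with 17β-HSD1 siRNA in E2, against 9.95 and 10.10 in vehicle, and 9.52 and 9.50 with control siRNA in E2, against 9.88 and 9.91 in vehicle. Every E2 array was thus below every vehicle array for LRIG1. Of the 90 pathway genes 4 had this arrangement (LRIG1, CBLB, PIK3R3 and ELF3), 4.44% beside 1.99% of all probe sets. Another 6 had every E2 array above every vehicle array (PLCG1, SRC, CBL, INPP4B, SPRED2 and YBX1), 6.67% beside 2.94%.

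Downstream, 5 of 10 listed RAS-MAPK core genes were measured, with a median E2 change of 0.07 and a range of -0.04 to 0.11, among them MAP2K1 at 0.11 ± 0.11 and HRAS at 0.09 ± 0.10. In the PI3K-AKT core 7 of 11 were measured, with a median of 0.00. PIK3R3 stood at -0.51 (adjusted p = 0.0543) and INPP4B, which removes a phosphate from a PI3K product, at 0.73 ± 0.18 (adjusted p = 0.0857). The 17 MAPK feedback and early response genes had a median of 0.10, with SPRED2 at 0.35 ± 0.10 and SPRY1 at -0.52 ± 0.15, both genes of feedback inhibitors. Feedback genes therefore stood on both sides of 0.

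Genes beside ERBB2 on the chromosome gave no called change. Of 10 such genes 6 had negative E2 changes, with a median of -0.05 and a lowest value of -0.36, that of GRB7. PGAP3, whose start lies in the window shown for ERBB2, had signals of 7.89 and 7.72 with 17β-HSD1 siRNA in E2, against 7.98 and 7.86 in vehicle. With control siRNA it had 7.75 and 7.67 in E2, against 7.91 and 8.01 in vehicle. The PGAP3 arrays of the 2 media overlapped, and its averaged change was -0.18 ± 0.10 (limma adjusted p = 0.755), beside -0.72 for ERBB2. Whether the ERBB2 probe set reads transcripts that begin in that window was not tested, so the 2 values do not compare 1 shared start.

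Of 13 listed regulators of ERBB genes 12 were measured, with a median E2 change of -0.08. ELF3 stood at -0.51 ± 0.15 (adjusted p = 0.172) and ESR1, the estrogen receptor gene, at 0.43 ± 0.13 (adjusted p = 0.230). With 17β-HSD1 siRNA, ESR1 stood at -0.32 ± 0.13 (adjusted p = 0.463).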

How the data were processed

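The deposited table holds 33297 probe sets as log2 intensities, a scale read from the values (2.42 to 15.2). How the authors summarised, background-corrected and normalized them is not stated in the labels or the table. Per the labels' protocols, RNA was amplified by a whole transcript assay before hybridisation. Array medians ran from 7.25 to 7.37, and values were tested as deposited. Names came from the platform annotation, updated by gene identifier through the RefSeq table of GRCh38.p14. A single symbol was found for 19460 probe sets, several for 1754 and none for 12083.

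The 21214 named probe sets were fitted with limma 3.58.1 (R 4.3.3), giving lmFit 8 arrays and 1 coefficient for each group before eBayes, and p-values were adjusted by Benjamini-Hochberg over all of them. The fit had 4 residual degrees of freedom, so the number of arrays limits precision. By eBayes 7.2 prior degrees of freedom, estimated over all named probe sets, were added, 11.2 in total. SEs, intervals and p-values thus rest on a gene's spread between these cultures, drawn toward that of the other probe sets. The reported fit had no term for the replicate number. The members and lists were chosen with earlier results of these data known. Pathway genes are named by the smallest p in the averaged E2 contrast, up to 2 per list. Likeness names the 5 highest and 3 lowest r, and the LRIG1 array values and the pathway genes without overlap were added after they were seen. The procedure was tested on simulated data for averaged E2. There 73% of changes of 1 log2 unit and 19% of changes of 0.5 were called. A change that did not pass is therefore not shown to be absent.

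The labels number the replicates 1 and 2 and speak of separate culture experiments, and here a number is read as 1 experiment. Replicate differences correlated above 0.1 in 4 of the 6 pairs of groups, from 0.31 to 0.44, and at 0.01 and -0.20 in the others.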

Additional observations from a re-analysis of the deposited data

How the results depend on the processing

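Of 1217 values recomputed under other settings, 1197 kept their side of the threshold or stayed within the replicate spread, and no called member changed sign. Of the 1055 member values, 51 changed sign without being called. The count of members called with E2, 1 as reported, was 2 in each of an additive model, a further quantile normalization and the replicate block, with ERBB3 added, and 0 to 1 when single arrays were left out. Counts for the averaged siRNA were 1 with the replicate block and 0 to 1 without single arrays, ERBB4 in each case. For E2 with control siRNA the count was 1 (ERBB2) with the replicate block, and also with a crossed pairing (replicates 1 and 2 exchanged in the control vehicle group), added after seeing the data. The crossed block called 0 members for the siRNA. For averaged E2 the crossed block called 1 member, ERBB2, so the ERBB3 call with the block also depended on the pairing. In the remaining comparisons the pairing changed no call among the members. Across single arrays left out, the ligand median ran from -0.071 to 0.085 for E2 and from -0.039 to 0.15 for the siRNA. The values of 0.085 and -0.039 came without 17β-HSD1 siRNA, vehicle replicate 1. ERBB2 with E2 ran from -0.80 to -0.65 over all settings and was called in 16 of 17. ERBB3 ran from -0.50 to -0.40 and ERBB4 with the siRNA from 0.71 to 1.34, each called in 3. NRG1 was removed by the filter on dim probe sets. Over all named probe sets, the replicate block called 509 against 329 as reported for averaged E2, 285 against 97 for the averaged siRNA, 111 against 57 for E2 with 17β-HSD1 siRNA, 127 against 18 for E2 with control siRNA, 45 against 0 for the siRNA in E2 and 37 against 0 in vehicle. With every probe set tested these calls were 99, 0, 0, 1, 0 and 0, out of more tests. Without single arrays they ran from 121 to 319, 0 to 186, 0 to 79, 2 to 26, 0 to 65 and 0 to 30 in the same order. The additive model called 157 and the crossed block 170 for the averaged siRNA. For E2 with control siRNA the crossed block called 55, a trended spread 39, 1 probe set per gene 28, the compared arrays alone 0, and quantile normalization 5, all higher, where 15 were higher and 3 lower as reported. For E2 with 17β-HSD1 siRNA quantile normalization called 33 and the compared arrays alone 95, and those alone called 63 for the siRNA in vehicle and 1 in E2. The cause of these shifts was not tested.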
